A study of Mus musculus with 23 samples.

Results

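The insulin-like growth factor (IGF) system was described here through 8 genes: *Igf1*, which encodes the growth factor, *Igf1r*, which encodes its receptor, and the binding protein genes *Igfbp2*, *Igfbp3*, *Igfbp4*, *Igfbp5*, *Igfbp6* and *Igfbp7*. They were taken by gene symbol from the 18512 symbols of the count tables, and all 8 were found. A set of 7 passed the filter on low counts and was tested among 12195 genes. *Igfbp2* did not pass. RNA came from the head of the pancreas of C57BL/6 mice (Charles River) that were 6 to 8 weeks old and weighed 20 to 25 g. Baseline mice (8, 4 female and 4 male) were labelled as non-injured, and no vehicle injection is described for them in the sources used here. The day 7 mice (8, 4 female and 4 male) and the day 14 mice (7, 3 female and 4 male) had acute pancreatitis from caerulein, a cholecystokinin analogue that overstimulates acinar cells. It was given intraperitoneally at 50 µg/kg in 8 hourly injections on each of 2 consecutive days. Each sample was 1 mouse. The question of the study was which transcripts still differed from baseline 1 and 2 weeks after the injury, once the tissue had recovered by histology.

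IGF1 is a secreted peptide that binds the tyrosine kinase receptor IGF1R and, through adaptors such as the IRS proteins, activates PI3K, AKT and mTOR signalling and cell growth. Most circulating IGF1 comes from the liver under growth hormone, and many tissues also make it locally. Secreted binding proteins hold IGFs with high affinity, keep them from the receptor and lengthen their stay, until proteases such as PAPP-A cleave the binding protein. IGFBP7 is a relative of the classical binding proteins that binds IGFs weakly and is found in vascular basement membranes.

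The libraries held between 7059890 and 9567446 counts each, so that the tested members had 29 to 1008 counts per mouse. The acinar markers (*Cpa1*, *Pnlip*, *Cel* and 5 others) were counted in every mouse and summed to between 140682 and 368228 CPM (counts scaled to a common library size with TMM factors). Their sum was highest at baseline (250335 to 368228 CPM), lower at day 14 (225410 to 272039 CPM) and lowest at day 7 (140682 to 218781 CPM). The 20 most abundant genes held a share of the counts that ranged over 66.4 to 71.2% in baseline mice, 55.3 to 62.8% in day 7 mice and 63.9 to 66.2% in day 14 mice, and the TMM scaling factors (0.770 to 1.40) moved with the group in the opposite direction. Some libraries stood apart. Liver transcripts were high in day 14 mouse 19 (*Alb*, albumin, 3421 counts) and raised in day 14 mouse 21 (230 counts), while the other 21 mice had 4 to 28. The 6 lymphocyte markers summed to 37.8 CPM in baseline mouse 5, 72.3 CPM in day 7 mouse 10, 40.2 CPM in day 7 mouse 15 and 45.5 CPM in day 14 mouse 21, and the other mice lay between 0.153 and 12.1 CPM. Results were also computed without these mice, and the values are given where a call or a relation changed. In bulk tissue, fewer cells of a type and less RNA per cell cannot be told apart.

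The genes lie at separate places in the mouse genome (GRCm38, GENCODE vM21), except for *Igfbp2* and *Igfbp5*. *Igf1* spans chr10:87858265-87937042 on the plus strand and *Igf1r* spans chr7:67952827-68233668 on the plus strand. *Igfbp2* (chr1:72824503-72852474, plus strand) and *Igfbp5* (chr1:72857932-72874884, minus strand) end 5.46 kb apart, tail to tail. *Igfbp3* (chr11:7206086-7213923, minus strand) lies 3.54 kb from *Igfbp1*, also tail to tail. *Igfbp4* spans chr11:99041244-99054392 and *Igfbp6* spans chr15:102144362-102149511, both on the plus strand, and *Igfbp7* spans chr5:77349240-77408041 on the minus strand. The antisense gene *Igf1os* overlaps *Igf1*, and *Polr2b* and *Gm34648* overlap *Igfbp7* on the other strand. Whether featureCounts was run by strand is not given in the sources used here, so reads of these overlapping genes may be shared.

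Upstream sequence is shown for the 4 genes that formed the closest pairs over all 23 mice (below), *Igfbp4* with *Igfbp7* and *Igfbp5* with *Igfbp6*. The bases are those just before the start of the RefSeq transcript (GRCm38.p6), read 5′ to 3′ along the gene, and contain no part of the annotated gene. Capitals mark matches on either strand to the letters TATAAA of the TATA box, to the letters CCAAT that name their own box, and to the letters GGGCGG of the GC box, and no printed match overlapped another.
Igfbp4, chr11:99041144-99041243, plus strand: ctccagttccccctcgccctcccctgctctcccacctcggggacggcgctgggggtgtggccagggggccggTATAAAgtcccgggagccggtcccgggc
Igfbp7, chr5:77408046-77408145, minus strand: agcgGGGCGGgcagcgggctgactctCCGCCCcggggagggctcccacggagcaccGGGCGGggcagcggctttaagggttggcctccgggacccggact
Igfbp5, chr1:72874885-72874965, minus strand: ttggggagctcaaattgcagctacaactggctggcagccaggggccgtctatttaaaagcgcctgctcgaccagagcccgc
Igfbp6, chr15:102144086-102144185, plus strand: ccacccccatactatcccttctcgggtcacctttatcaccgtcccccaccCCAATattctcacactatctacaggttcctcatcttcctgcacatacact
In the 250 bases before the start, *Igfbp4* held 1 match to TATAAA and *Igfbp7* held 4 matches to GGGCGG. *Igfbp6* held 2 matches to CCAAT and 1 to TATAAA, the latter outside the printed bases. No exact match was found before *Igfbp5*. Of 32851 mouse promoters of the same length, 12.4% held a match to TATAAA, 33.8% to CCAAT and 32.7% to GGGCGG. The paired genes thus shared no exact match to these letters. Variant forms and the distance from the start were not considered. Their GC content was 69.2% (*Igfbp4*), 74.0% (*Igfbp7*), 58.8% (*Igfbp5*) and 49.6% (*Igfbp6*), against a median of 52.4% over all promoters.

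Levels of different genes were compared as CPM per kb of exon, since longer genes collect more reads. At baseline, *Igfbp7* was the most abundant of the 8, at 20.9 ± 4.15 CPM per kb (SD, n = 8), and its lowest mouse (17.2) lay above the highest mouse of any other member. *Igfbp6* (8.93 ± 3.81), *Igf1* (7.28 ± 0.905), *Igfbp5* (6.07 ± 3.50), *Igfbp4* (4.70 ± 1.88) and *Igfbp3* (4.53 ± 0.817 CPM per kb) followed. Neighbours within these 5 did not differ beyond the spread between mice, as their ranges overlapped. *Igf1r* was at 2.40 ± 0.219 CPM per kb, and its highest mouse (2.64) stayed below the lowest *Igfbp4* (3.19) and *Igfbp3* (3.66) mice. This separation is for lengths that take in all annotated exons of a gene. By the longest transcript, the baseline means were closer, at 3.54 (*Igf1r*), 5.41 (*Igfbp4*) and 5.86 (*Igfbp3*). *Igf1* (10.2) then stood above *Igfbp6* (8.93), and *Igfbp7* stayed first. *Igfbp2* was near the limit of detection at 0.101 ± 0.145 CPM per kb. *Igfbp7* stayed the most abundant at day 7 (26.8 ± 6.70, n = 8) and at day 14 (27.2 ± 2.53 CPM per kb, n = 7).

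**Figure D1:**
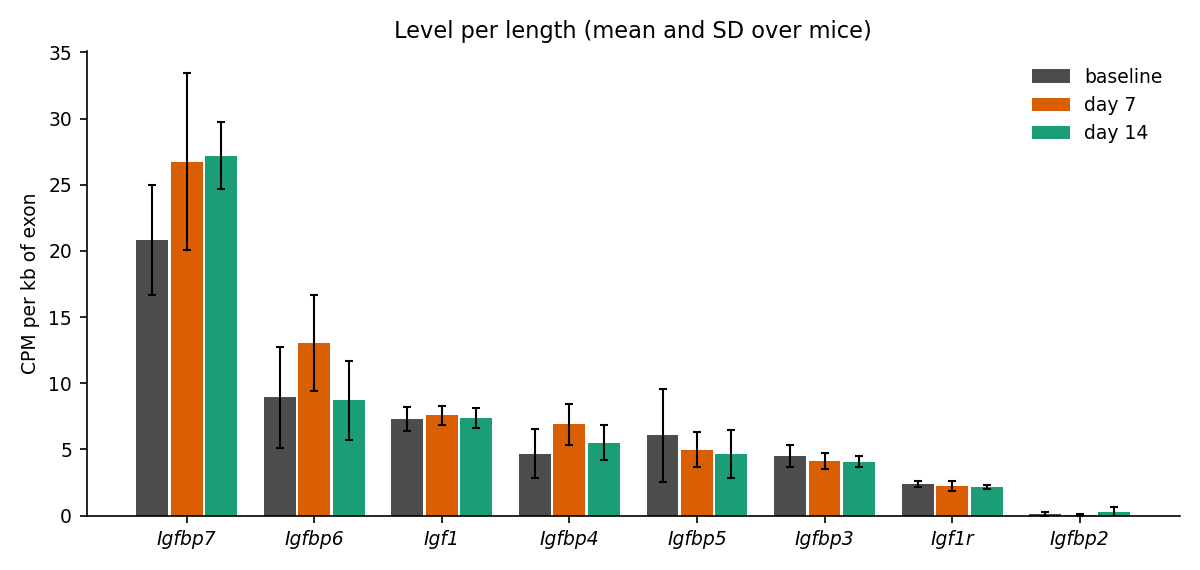
Mean level of each member at baseline (n = 8), day 7 (n = 8) and day 14 (n = 7), in CPM per kb of exon on a linear axis, with the SD over mice as whiskers. *Igfbp7* stands above the others at each time point and *Igfbp2* lies close to 0.

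The members also differed in how much they varied between mice. Over all 23 mice, the coefficient of variation of the CPM was 10.4% for *Igf1*, 12.4% for *Igf1r* and 15.04% for *Igfbp3*. It rose through *Igfbp7* (22.2%), *Igfbp4* (31.7%) and *Igfbp6* (38.2%) to *Igfbp5* (45.5%). With TMM scaling, the ligand and its receptor thus kept a narrower range over the 23 mice than *Igfbp4*, *Igfbp5* and *Igfbp6*. By total counts the range was wider, from 49.9 to 105 CPM for *Igf1* and from 27.5 to 57.3 CPM for *Igf1r*. The order also differed within a time point. At day 7, *Igfbp7* (25.0%) varied about as much as *Igfbp4* (22.6%), *Igfbp5* (26.4%) and *Igfbp6* (27.9%), and *Igf1r* was at 16.6%.

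**Figure D2:**
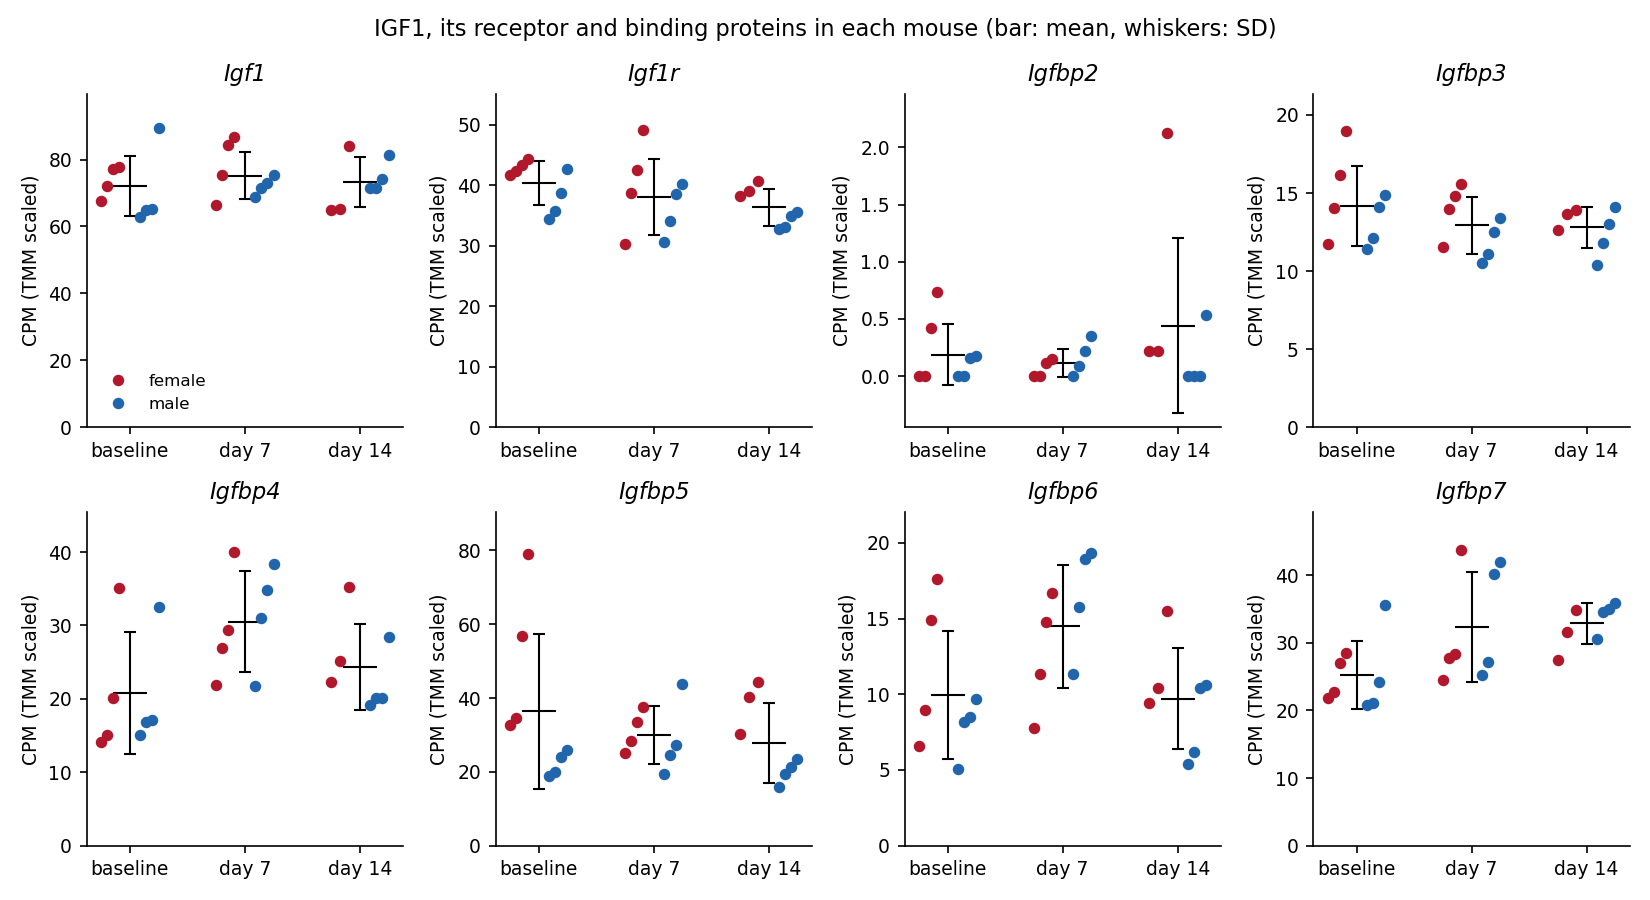
CPM (TMM scaled) of each member in each of the 23 mice by time point, females in red and males in blue, with the mean as a bar and the SD as whiskers, each panel on its own linear axis. *Igf1* stays between 62.9 and 89.4 CPM in every mouse, 6 of 8 baseline mice lie below all day 7 mice for *Igfbp4*, and females lie above males for *Igfbp5* at baseline and day 14.

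The first comparison asked whether members differed from baseline at day 7. None of the 7 tested members was a differentially expressed gene (DEG, which required an adjusted p no higher than 0.05 in edgeR's quasi-likelihood test together with a change of 1.5-fold or more), where 5.13% of all genes tested were. At an unadjusted p under 0.05 there were 3 members (*Igfbp4*, *Igfbp6* and *Igfbp7*, all higher), where 32.2% of all genes were, so that this share was near the background. DESeq2 called 0 members and gave 1 (*Igfbp4*) an adjusted p of at most 0.05. The median log2 fold change of the 7 was 0.06, against 0.02 over all genes tested.

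*Igf1*, the growth factor, had a lowest, median and highest level of 62.9, 69.8 and 89.4 CPM at baseline and of 66.4, 74.2 and 86.6 CPM at day 7. The groups overlapped throughout. The log2 fold change was 0.06 ± 0.07 (SE, edgeR adjusted p = 0.617), a fold change of 1.04 with a 95% interval of 0.938 to 1.16. With TMM scaling, a change of *Igf1* mRNA by 1.5-fold in either direction lay outside this interval.

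*Igf1r*, the receptor, ranged from 34.3 to 44.3 CPM at baseline (median 42.0) and from 30.3 to 49.2 CPM at day 7 (median 38.6). The day 7 range was the wider, with 1 mouse above and 3 mice below all baseline mice. The log2 fold change was -0.09 ± 0.07 (edgeR adjusted p = 0.436). *Igfbp3*, the main carrier of circulating IGFs, ranged from 11.4 to 19.001 CPM at baseline (median 14.1) and from 10.5 to 15.6 CPM at day 7 (median 12.96). Its log2 fold change was -0.14 ± 0.09 (edgeR adjusted p = 0.314), with 2 day 7 mice below all baseline mice. The intervals of both genes also lay within 1.5-fold.

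*Igfbp4*, an inhibitory binding protein and the substrate of PAPP-A, was at 14.1, 16.95 and 35.1 CPM at baseline and at 21.8, 30.2 and 40.0 CPM at day 7 (lowest, median and highest). Of the 8 baseline mice, 6 lay between 14.1 and 20.1 CPM and so below all 8 day 7 mice, and the other 2, mice 4 and 5, were at 35.1 and 32.5 CPM. The log2 fold change was 0.55 ± 0.21, a fold change of 1.46 (95% interval 1.09 to 1.97), with an edgeR adjusted p of 0.0696. Single mice decided the call. Without baseline mouse 4 the log2 fold change was 0.70 (edgeR adjusted p = 0.0155), without baseline mouse 5 it was 0.70 (edgeR adjusted p = 0.0190), and without day 7 mouse 11 it was 0.60 (edgeR adjusted p = 0.0464), and *Igfbp4* was then a DEG.

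*Igfbp7* ranged from 20.8 to 35.6 CPM at baseline (median 23.4) and from 24.5 to 43.7 CPM at day 7 (median 28.02). At day 7, 3 mice (10, 14 and 15, at 40.2 to 43.7 CPM) lay above all baseline mice, and the other 5 (24.5 to 28.3 CPM) lay within the baseline range. The log2 fold change was 0.36 ± 0.13 (edgeR adjusted p = 0.0644), below 1.5-fold. The adjusted p reached 0.0163 without baseline mouse 5 by edgeR, with a log2 fold change of 0.44, and passed 0.05 also without day 7 mouse 11, 13 or 16, yet the fold change stayed below 1.5. Mice 5, 10 and 15 are among the lymphocyte-rich libraries, and without mice 5, 10, 15 and 21 the log2 fold change was 0.26 (edgeR adjusted p = 0.0892).

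*Igfbp6*, which prefers IGF2 over IGF1, was at 5.04, 8.73 and 17.6 CPM at baseline and at 7.78, 15.3 and 19.3 CPM at day 7. The groups overlapped, with 2 day 7 mice (13 and 14) above all baseline mice. The log2 fold change was 0.55 ± 0.25 (edgeR adjusted p = 0.133). *Igfbp5*, which binds extracellular matrix, was at 18.9, 29.2 and 79.0 CPM at baseline and at 19.5, 27.7 and 43.9 CPM at day 7, with a log2 fold change of -0.18 ± 0.23 (edgeR adjusted p = 0.614). Its day 7 mice all lay within the baseline range.

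These values are relative to the other genes of a library. With total count scaling the median of all genes tested moved by 0.45 at day 7 and by 0.21 at day 14 (log2). By that scaling *Igfbp4* (0.997), *Igfbp6* (0.99) and *Igfbp7* (0.82) were DEGs at day 7, as were 30.3% of all genes tested, and *Igf1r* (0.36), *Igfbp3* (0.31) and *Igfbp5* (0.26) turned positive. *Igf1* was at 0.51 ± 0.08 (edgeR adjusted p = 1.1e-05), so that its interval within 1.5-fold holds for TMM scaling only. Measured from the shifted median, the day 7 differences were 0.52 for *Igfbp4*, 0.51 for *Igfbp6*, 0.35 for *Igfbp7*, 0.04 for *Igf1*, -0.12 for *Igf1r*, -0.17 for *Igfbp3* and -0.22 for *Igfbp5*. All 7 then had the sign they had with TMM factors. This is no separate check, since subtracting the median nearly restores the TMM scaling, whose own median was 0.02.

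**Figure D3:**
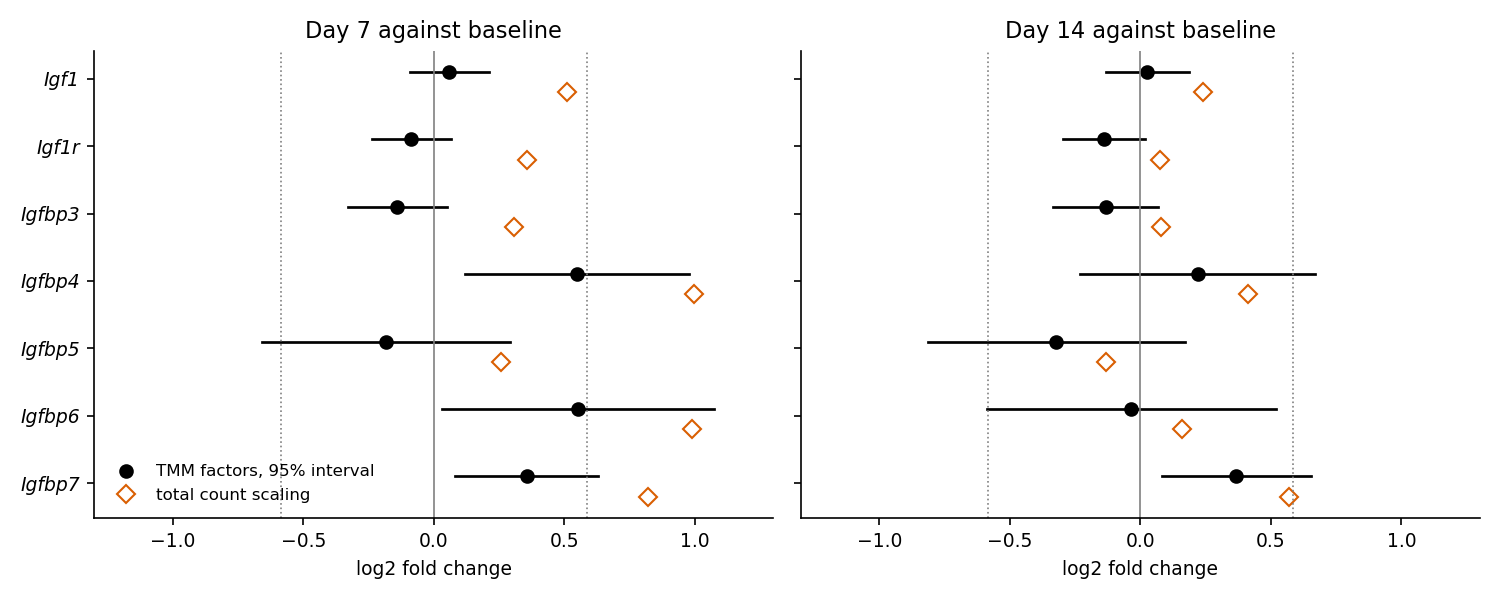
Log2 fold change of the 7 tested members at day 7 and day 14 against baseline, as black points with 95% intervals (TMM factors) and as open diamonds (total count scaling, without interval), on a linear axis with 1.5-fold marked by dotted lines. At day 7 *Igfbp4*, *Igfbp6* and *Igfbp7* lie above 0 under both scalings, *Igf1* lies near 0 with TMM factors, and total count scaling shifts all members to the right.

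The second comparison set day 14 against baseline. None of the 7 tested members was a DEG by edgeR, where 0.787% of all genes were, and 1 (*Igfbp7*) had an unadjusted p under 0.05, where 13.3% of all genes did. DESeq2 gave 0 at an adjusted p of at most 0.05. *Igfbp7* ranged from 27.5 to 36.0 CPM (median 34.5), and all but 1 of the 8 baseline mice (20.8 to 28.5 CPM, and mouse 5 at 35.6 CPM) lay in the lower part of that range or under it. The log2 fold change was 0.37 ± 0.14 (edgeR adjusted p = 0.218), about as large as at day 7. Without mice 5, 10, 15 and 21, the lymphocyte-rich libraries, it was 0.43 (edgeR adjusted p = 0.0263), still under 1.5-fold.

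The other members lay closer to baseline at day 14 or varied too widely for a call. *Igf1* was at 64.8, 71.6 and 84.2 CPM, with a fold change of 1.02 against baseline (95% interval 0.913 to 1.14). *Igf1r* was at 32.7, 35.6 and 40.7 CPM, with a log2 fold change of -0.14 ± 0.08 (edgeR adjusted p = 0.458), and *Igfbp3* was at 10.4, 12.99 and 14.1 CPM (-0.13 ± 0.10, edgeR adjusted p = 0.613). *Igfbp4* was at 19.2, 22.3 and 35.2 CPM (0.22 ± 0.22, edgeR adjusted p = 0.736), and its log2 fold change was 0.03 without mice 19 and 21. *Igfbp5* was at 15.99, 23.4 and 44.4 CPM (-0.32 ± 0.24, edgeR adjusted p = 0.620). *Igfbp6* was at 5.37, 10.4 and 15.5 CPM (-0.03 ± 0.27, edgeR adjusted p = 0.984).

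Day 14 was also set against day 7 directly. No member was a DEG by edgeR (0.377% of all genes were), and 1, *Igfbp6*, had an unadjusted p under 0.05 (14.1% of all genes did). DESeq2 gave 0 at an adjusted p up to 0.05. *Igfbp6* was lower at day 14 by a log2 difference of -0.58 ± 0.25 (edgeR adjusted p = 0.294), and 2 of 7 day 14 mice (21 and 22) lay below all day 7 mice. *Igfbp4* differed by -0.33 ± 0.21 (edgeR adjusted p = 0.511), and by -0.51 without mice 19 and 21 (edgeR adjusted p = 0.262), so that a return from the day 7 level was not shown. *Igfbp7* differed by 0.01 ± 0.13 (95% interval of the fold change 0.833 to 1.22). The comparisons of day 7 and of day 14 with baseline share the 8 baseline mice.

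*Igfbp2* was hardly detected. It had 50 counts in all, and 10 of 23 mice had 0, which allows up to 3 counts or 0.300 to 0.522 CPM in those libraries (counting error only). The highest counts were 20 in mouse 19, 6 in baseline mouse 4 and 5 in mouse 21, and no other mouse had over 4. Mice 19 and 21 are those with liver transcripts, and *Igfbp2* is a known liver product. The liver gene *Igfbp1*, its relative, had 7 counts in mouse 19 and 0 in the other 22 mice. *Apoa1*, an apolipoprotein of the liver, had 279 counts in mouse 19, 30 in mouse 21 and 0 to 4 elsewhere, and *Cps1*, a urea cycle enzyme, had 477, 41 and 0 to 1. The part of these transcripts in the *Igfbp2* counts was not tested.

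The sexes were compared over all time points in the same fit. No member was a DEG by edgeR (0.23% of all genes were), and 3 members, *Igf1r*, *Igfbp3* and *Igfbp5*, had an unadjusted p under 0.05 (9.0% of all genes did), each lower in males. DESeq2 called 1, *Igfbp5*. Of the 7 log2 differences 6 were negative (male minus female), with a median of -0.18, against 0.00 over all genes.

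*Igfbp5* showed the largest difference. The baseline females were at 32.7, 34.5, 56.7 and 79.0 CPM and the baseline males at 18.9, 19.9, 24.002 and 25.8 CPM, so that the sexes did not overlap. At day 14 the females were at 30.3, 40.3 and 44.4 CPM and the males at 15.99, 19.3, 21.4 and 23.4 CPM, again without overlap. At day 7 they overlapped, with females at 25.1, 28.2, 33.4 and 37.7 CPM and males at 19.5, 24.7, 27.2 and 43.9 CPM. The highest male there was mouse 14. Over all time points the difference was -0.72 ± 0.19 on the log2 scale (male minus female, edgeR adjusted p = 0.116, DESeq2 adjusted p = 0.00456). Without mouse 14 it was -0.85 and a DEG by edgeR (adjusted p = 0.0124).

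*Igf1r* was lower in males by a smaller amount. Females were at 41.7 to 44.3 CPM and males at 34.3 to 42.6 CPM at baseline. At day 7 the males (30.7 to 40.2 CPM) lay wholly within the range of the females (30.3 to 49.2 CPM), and at day 14 the 3 females (38.2 to 40.7 CPM) lay above the 4 males (32.7 to 35.6 CPM). The difference was -0.18 ± 0.06 (edgeR adjusted p = 0.261) with an interval within 1.5-fold, and the adjusted p was 0.0411 by edgeR without day 7 mouse 10. For *Igf1* the difference was -0.04 ± 0.06 (edgeR adjusted p = 0.942, fold interval 0.889 to 1.06).

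Whether the change from baseline differed between the sexes was tested as an interaction. No member passed an adjusted p of 0.05 by edgeR, at day 7 (0.0082% of all genes, 1 gene, did) or at day 14 (0.0%). At an unadjusted p under 0.05 there were *Igfbp5* and *Igfbp6* at day 7, where 5.6% of all genes were, and 0 members at day 14, where 3.77% were. *Igfbp5* had a log2 fold change of 0.38 in males and -0.72 in females at day 7 (edgeR adjusted p of the difference = 0.720), and *Igfbp6* had 1.05 in males and 0.05 in females (edgeR adjusted p of the difference = 0.878). DESeq2 was not run for this interaction.

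Between mice of the same time point, some members moved together. Log2 CPM values were centred on the mean of each time point and correlated over the 23 mice, for 28 pairs that share libraries and depth. By a two-sided permutation test within time points, 4 pairs had an adjusted p of at most 0.05, of which 3 were positive, and 2 of the 4 also passed by Spearman's rho. *Igf1* was in none of the 4. No share over pairs of other genes stands beside this count, so it cannot be read as particular to the members.

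*Igfbp4* and *Igfbp7* gave the strongest relation, with r = 0.76 (permutation adjusted p = 0.00084) and rho = 0.72 (adjusted p = 0.0053, n = 23). It was r = 0.73 without the 2 mice farthest from the median, and 0.88 at baseline, 0.91 at day 7 and 0.31 at day 14. Without mice 5, 10, 15 and 21 it was 0.63 (n = 19, permutation adjusted p = 0.0067). *Igfbp5* and *Igfbp6* gave r = 0.75 (permutation adjusted p = 0.0028) and rho = 0.71 (adjusted p = 0.0053), with 0.63 without the 2 farthest mice and 0.86, 0.48 and 0.78 within the 3 time points. Removing the means of sex as well as of time point left both relations, at r = 0.82 (permutation adjusted p = 0.00028) and r = 0.78 (permutation adjusted p = 0.0053). Each missed the threshold without 1 of the time points. *Igfbp5* with *Igfbp6* gave r = 0.65 without baseline (n = 15, permutation adjusted p = 0.0759), and *Igfbp4* with *Igfbp7* gave r = 0.75 without day 7 (n = 15, permutation adjusted p = 0.0508). Without mice 5, 10, 15 and 21, *Igfbp4* had a higher r with *Igfbp5* (0.78) and *Igfbp6* (0.78) than with *Igfbp7* (0.63), among 9 pairs past the threshold.

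The other 2 pairs changed more. *Igf1r* and *Igfbp7* moved in opposite directions, with r = -0.68 (permutation adjusted p = 0.0256), rho = -0.57 (adjusted p = 0.107) and r = -0.66 without the 2 farthest mice. Without mice 5, 10, 15 and 21 the value was -0.31 (permutation adjusted p = 0.61), so the relation no longer passed. Within time points it was then 0.40 at baseline, -0.58 at day 7 and -0.56 at day 14. *Igfbp2* and *Igfbp4* gave r = 0.55 (permutation adjusted p = 0.0447), rho = 0.50 (adjusted p = 0.107) and r = 0.29 without the 2 farthest mice, so the relation rested on those. It was 0.42 without mice 19 and 21 (permutation adjusted p = 0.30) and 0.75 without mice 5, 10, 15 and 21 (permutation adjusted p = 0.0067).

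**Figure D4:**
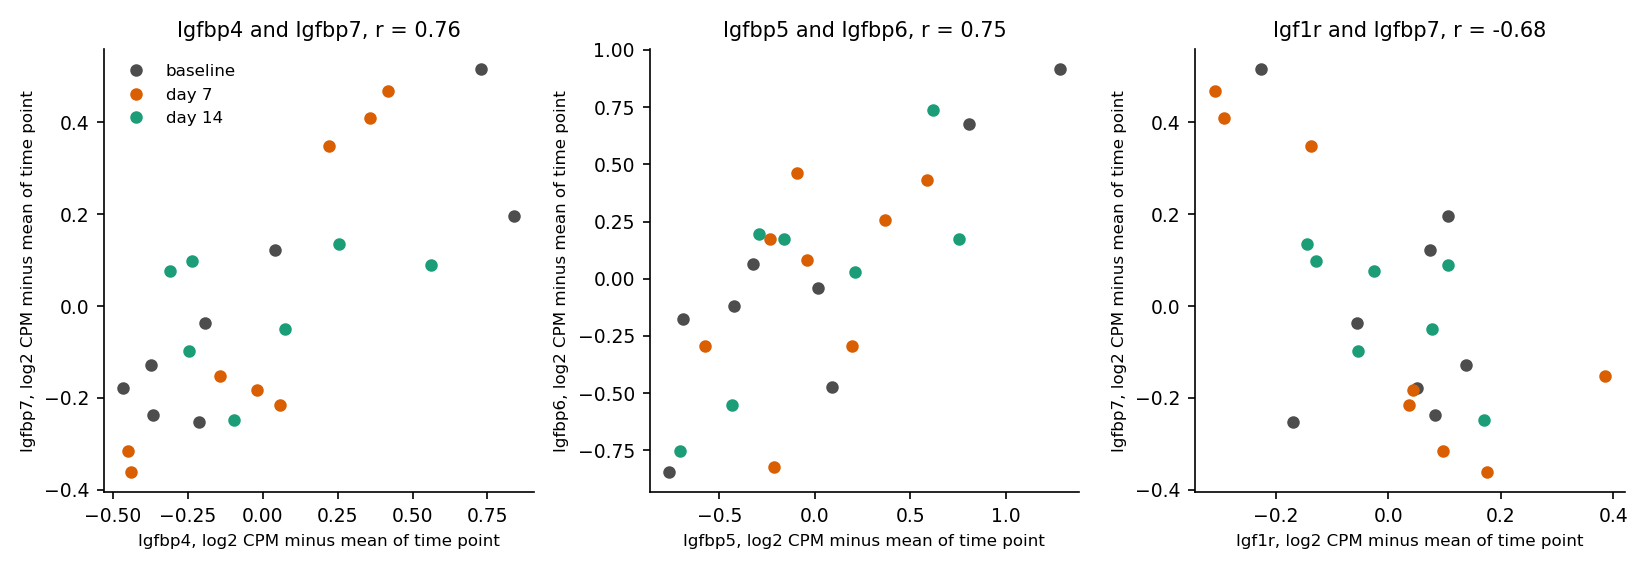
Log2 CPM minus the mean of the time point for 3 pairs of members, each point 1 mouse coloured by time point (n = 23), on linear axes. The points rise together for *Igfbp4* with *Igfbp7* (r = 0.76) and *Igfbp5* with *Igfbp6* (r = 0.75), and fall for *Igf1r* with *Igfbp7* (r = -0.68).

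Markers of the cell types in the tissue moved with some members. The mean log2 CPM of each of 11 marker lists was correlated in the same way with the 7 tested members, a comparison chosen after the values were seen. Of 77 relations, 21 had an adjusted p of at most 0.05. No share over all genes tested stands beside this count, so it cannot be read as particular to the members. *Igf1* and *Igfbp3* had none.

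*Igfbp4* went with the macrophage list (r = 0.92, rho = 0.86, permutation adjusted p = 0.00011, from the smallest p that the permutations can give) and the fibroblast and stellate list (r = 0.86, rho = 0.79), and against the acinar list (r = -0.74, rho = -0.82). *Igfbp7* went with the endothelial list (r = 0.86, rho = 0.80), the macrophage list (r = 0.84, rho = 0.81) and the lymphocyte list (r = 0.82, rho = 0.83). It also went with the fibroblast and stellate list (r = 0.74, rho = 0.72) and against the acinar list (r = -0.78, rho = -0.77). *Igfbp4* also went with the lymphocyte (r = 0.81, rho = 0.79) and endothelial (r = 0.58, rho = 0.41) lists, so that these relations were shared by both members. *Igfbp6* (r = 0.89, rho = 0.89) and *Igfbp5* (r = 0.80, rho = 0.74) went with the mesothelial list, markers of the cells that cover the organ. *Igf1r* went with the duct list (r = 0.75, rho = 0.70) and against the endothelial (r = -0.68, rho = -0.53) and adipocyte (r = -0.58, rho = -0.43) lists.

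Mice 5, 10, 15 and 21 were high for several of these lists. Without them, 13 of the 21 relations remained past an adjusted p of 0.05, and 26 of the 77 passed in all (n = 19). *Igfbp4* still went with the macrophage list (r = 0.88), and *Igfbp7* less closely with the endothelial (r = 0.63), macrophage (r = 0.74) and lymphocyte (r = 0.64) lists. *Igf1r* no longer went against the endothelial (r = -0.22) and adipocyte (r = -0.18) lists. *Igfbp6* (r = 0.86) and *Igfbp5* (r = 0.77) then also went with the macrophage list, and *Igfbp4* with the mesothelial list (r = 0.72), so that the lists did not separate the members into pairs. Without mice 19 and 21, 18 of the 21 remained and 19 passed in all (n = 21).

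The same lists differed between time points. At day 7, 7 of 9 macrophage markers rose (median log2 fold change of the list 0.89), and their sum was 45.4 to 136 CPM at baseline, 84.7 to 180 CPM at day 7 and 64.8 to 110 CPM at day 14. Of 8 fibroblast and stellate markers 6 rose at day 7 (median 0.81), with sums of 345 to 731, 643 to 1250 and 542 to 795 CPM at the 3 time points. Of 8 acinar markers 7 fell at day 7 by adjusted p (median -0.64). At day 14, 5 of 8 acinar markers fell by adjusted p (median -0.32). Of the 8 fibroblast and stellate markers 2 rose then (median 0.43), and of the 9 macrophage markers 0 did (median 0.17). These changes are with TMM factors. No marker of these 3 lists, of the endothelial list or of the mesothelial list was at 0 in any mouse. The mesothelial sum was 6.95 to 30.1 CPM at baseline, 9.73 to 27.7 CPM at day 7 and 6.44 to 12.3 CPM at day 14, and 0 of 5 markers passed at either time by edgeR (median log2 fold change -0.03 and -0.81). The endothelial sum was 79.3 to 127, 63.6 to 113 and 83.2 to 111 CPM at the 3 time points, with 1 of 7 markers lower by adjusted p at day 7 (median -0.31). Of the 4 lymphocyte markers tested 0 passed at either time, and the list had markers at 0 in some mice of every group. The part of these cell types in the values of *Igfbp4*, *Igfbp5*, *Igfbp6* and *Igfbp7* was not tested.

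**Figure D5:**
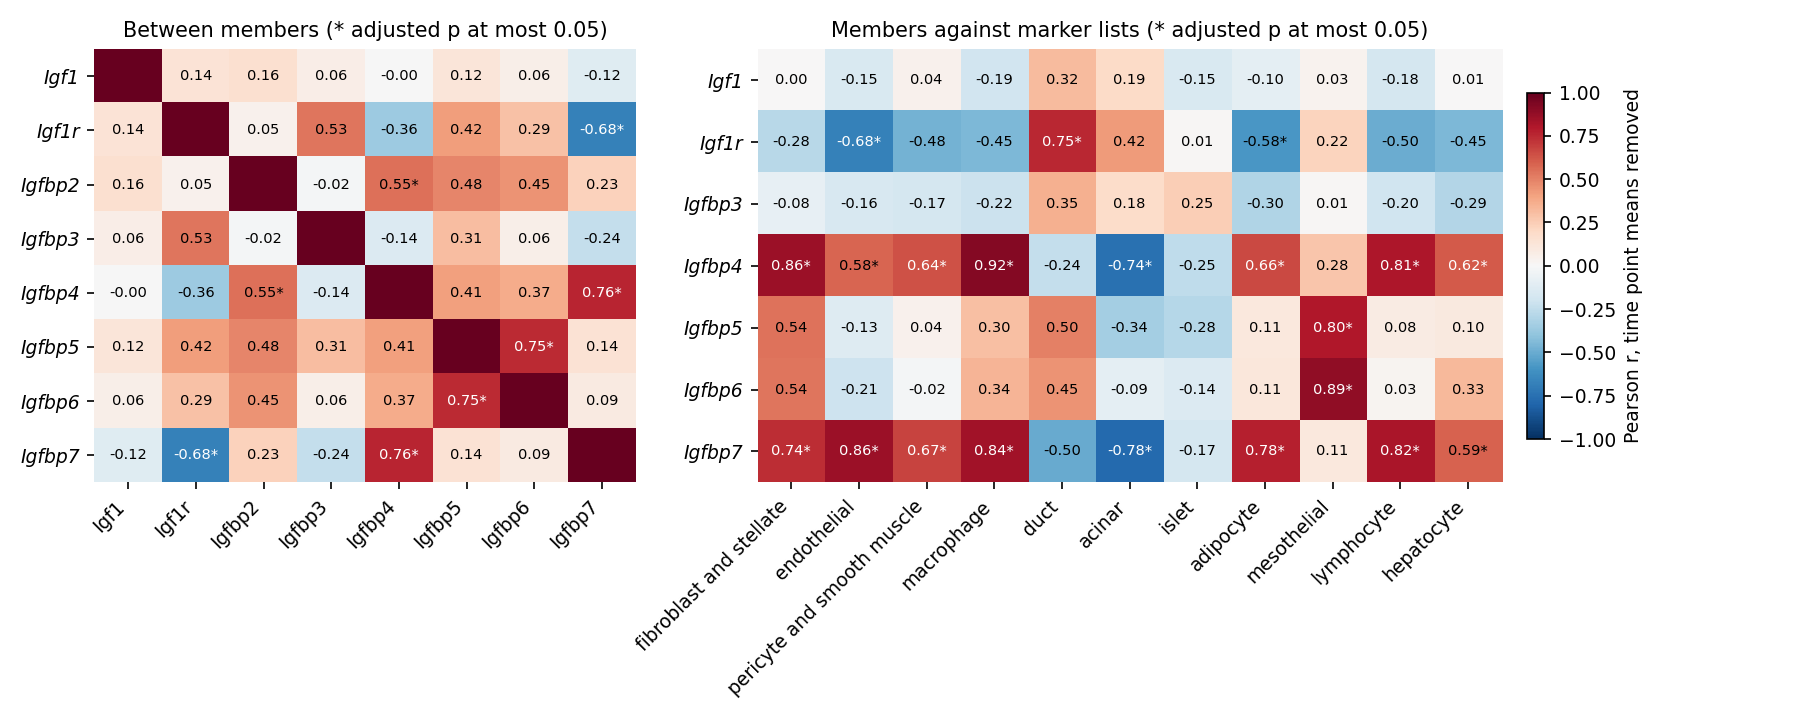
Pearson r over 23 mice with the time point means removed, between the members (left) and between the 7 tested members and 11 marker lists (right), on a colour scale from -1 to 1, with * for an adjusted p of at most 0.05. *Igfbp4* and *Igfbp7* share high values with the macrophage and lymphocyte lists, *Igfbp5* and *Igfbp6* with the mesothelial list, and the row of *Igf1* is pale.

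The genes whose pattern was most like each member among all genes tested are given as a description, by r of the centred log2 CPM over 23 mice. For *Igf1* they were *Bcl9l* (0.80), *Chd6* (0.78) and *Klf16* (0.74), and for *Igf1r* they were *Dusp26* (0.88), *Ssfa2* (0.85) and *Cdk18* (0.84). *Igfbp3* was followed by *1700028J19Rik* (0.73), *Mex3d* (0.73) and *Aplp1* (0.72). *Igfbp4* was followed by *Dpysl2*, *Lipa* and *Palm* (each 0.90). *Igfbp5* was followed by *Mgp* (0.86), *Fndc1* (0.86) and *Plat* (0.83), and *Igfbp6* by *Emilin2* (0.85), *Upk3b* (0.83, one of the mesothelial markers) and *Pkhd1l1* (0.83). *Igfbp7* was followed by *Unc93b1* (0.88), *Rasgrp2* (0.87) and *Flna* (0.87). For the sparse *Igfbp2* they were *Trf* (0.75), *Mgst1* (0.75) and *Plscr4* (0.74).

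Other genes of the pathway were described from lists of 54 genes, of which 48 were tested. *Stc1* (151 counts over all mice), *Grb14* (178), *Igf2* (84), *Igfbp1* (7) and *Igfbpl1* (5) did not pass the filter, and *Adam28* is not analysed here. At day 7, 4 of the 48 were DEGs, all higher, where 5.13% of all genes were DEGs. By the adjusted p alone, 6 rose and 13 fell, where 8.86% of all genes rose and 9.7% fell. At day 14, 1 was a DEG, and by the adjusted p alone 1 rose and 1 fell, where 1.05% and 0.525% of all genes did. The median log2 fold change of the 48 was -0.10 at day 7 and -0.03 at day 14, against 0.02 and 0.01 over all genes.

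The DEGs were ligands related to IGF1 and proteases. The insulin genes *Ins1* (log2 fold change 1.04 ± 0.27, edgeR adjusted p = 0.0116) and *Ins2* (0.97 ± 0.26, edgeR adjusted p = 0.0132) rose at day 7, with 7 of 8 mice above all baseline mice for each. The islet marker list, which holds both, rose for 4 of 7 markers. *Adam12*, a metalloprotease that cleaves binding proteins, rose from 0.687 ± 0.729 to 2.23 ± 0.952 CPM (SD, n = 8 each) at day 7, with a log2 fold change of 1.68 ± 0.41 (edgeR adjusted p = 0.00510). *Htra3*, a secreted serine protease, rose from 5.95 ± 1.58 to 10.1 ± 1.37 CPM (0.75 ± 0.14, edgeR adjusted p = 5.3e-04) with 6 of 8 day 7 mice above all baseline mice. *Htra3* was also the 1 DEG at day 14 (0.61 ± 0.15, edgeR adjusted p = 0.0305), but 0 pathway genes were called there without mice 19 and 21. Of the 8 tested proteases and protease inhibitors, 4 rose at day 7 and 0 fell, and *Pappa*, the main protease of IGFBP4 and named outside the rule for its role, had a log2 fold change of 0.57 ± 0.22 (edgeR adjusted p = 0.0767).

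Chosen after its values were seen, *Igfals*, the acid-labile subunit that joins IGFBP3 in the circulating complex, fell at day 7 (-0.53 ± 0.14, edgeR adjusted p = 0.00903). Of the other receptors 1 of 4 fell, *Igf2r*, the scavenger receptor of IGF2 (-0.31 ± 0.06, edgeR adjusted p = 3.9e-04). Both falls are with TMM factors. With total count scaling *Igf2r* was higher at day 7 (0.14, edgeR adjusted p = 0.0047) and *Igfals* was at -0.08 (edgeR adjusted p = 0.594). Measured from the shifted median of all genes, they were at -0.33 and -0.56. In the growth hormone axis 2 of 5 fell, and the largest difference was that of *Jak2* (0.30 ± 0.11, edgeR adjusted p = 0.0550). Of 7 receptor adaptors 1 fell, and the largest difference was that of *Irs2* (0.36 ± 0.16, edgeR adjusted p = 0.132). The falls in the growth hormone axis and among the adaptors depended on the scaling. By the adjusted p, 4 and 5 genes rose and 0 fell with total count scaling. Once the 20 most abundant genes were taken out of the total counts, 1 rose and 0 fell in each list.

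From PI3K to mTOR, 8 of 21 genes fell by the adjusted p at day 7, none by 1.5-fold, and 0 rose. The largest difference was that of *Pik3cd*, a PI3K subunit of leukocytes (0.97 ± 0.74, edgeR adjusted p = 0.384), which ranged from 1.67 to 24.8 CPM at day 7. Chosen after their values were seen, *Tsc2*, a brake on mTOR (-0.44 ± 0.07), and *Mtor* itself (-0.32 ± 0.06, edgeR adjusted p = 2.0e-04) were among those that fell. *Tsc2* lay at 28.9 to 40.2 CPM at day 7 and 42.8 to 52.2 CPM at baseline, without overlap (edgeR adjusted p = 7.0e-05), and *Mtor* was the 1 gene that fell by the adjusted p at day 14 (-0.22 ± 0.06, edgeR adjusted p = 0.0459). The direction of this list depended on the scaling, since 17 of the 21 rose and 0 fell at day 7 with total count scaling, while 1 rose and 5 fell once the 20 most abundant genes were taken out of the total counts.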

How the data were processed

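RNA-seq of the pancreas head was analysed in 23 mice. The deposited values are whole counts of read fragments per gene symbol. The authors depleted ribosomal RNA from total RNA, made stranded libraries (RNA integrity numbers above 6.4), trimmed the paired reads, aligned them to mm10 with STAR 2.5.2a and counted genes with featureCounts, whose strand setting and annotation are not given in the sources used here. Mouse 20 was omitted by the authors and is not analysed here.

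Genes that filterByExpr kept were tested in edgeR 4.0.16 (TMM normalisation, glmQLFit robust, glmQLFTest, with limma 3.58.1, R 4.3.3), with all 23 mice in 1 fit and sex as a covariate. P-values were two-sided and Benjamini-Hochberg adjusted over 12195 genes. SEs are the log2 fold change over the root of F. Log2 CPM used a prior count of 2. Correlations had p-values from 100000 permutations within time points (smallest possible 1e-05), adjusted over 28 pairs or 77 relations. Lengths and positions came from GENCODE vM21. The test was tested on simulated data for day 7 against baseline. It recovered 53.7% of 1.5-fold, 86.2% of 2-fold and 94.7% of 3-fold changes, so that a change near 1.5-fold could be missed. A count of 0 allows up to 3 counts, 3.1e-05 to 4.2e-05% of a library.

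Alternatives were DESeq2 1.42.0, other scalings, filters, thresholds, covariates and samples, and each mouse left out in turn. Leaving out mice 19 and 21, or 5, 10, 15 and 21, removing sex means, and the relations with marker lists (also without these mice) were added after seeing the data. The members and lists were chosen with earlier results of these data known. Pathway genes were named when they were DEGs, or had the largest day 7 difference of a list without one, apart from 4 chosen outside this rule (*Igfals*, *Pappa*, *Tsc2* and *Mtor*), and the 3 genes most like each member were named by r.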

Additional observations from a re-analysis of the deposited data

How the results depend on the processing

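No paired analysis was possible because every mouse number occurs in 1 group only. Of 644 log2 fold changes of members with 1 mouse left out, 616 kept their direction and their side of the thresholds, 4 passed them and 24 changed sign. The count of DEGs among members ranged from 0 to 1 at day 7 and between the sexes, and the count in the pathway lists at day 14 from 0 to 2. The log2 fold changes that changed sign ranged from -0.36 to 0.0013 (*Igfbp5*) at day 7. At day 14 against baseline they ranged from -0.011 to 0.085 (*Igf1*) and from -0.18 to 0.12 (*Igfbp6*). At day 14 against day 7 they ranged from -0.070 to 0.0090 (*Igf1*), -0.034 to 0.039 (*Igfbp3*), -0.22 to 0.058 (*Igfbp5*) and -0.042 to 0.10 (*Igfbp7*), and between the sexes from -0.17 to 0.019 (*Igfbp4*).

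Total count scaling gave 3 member DEGs at day 7 and 1 at day 14 against day 7, and 13 and 5 pathway DEGs at day 7 and day 14. It reversed *Igf1r* (0.36), *Igfbp3* (0.31) and *Igfbp5* (0.26) at day 7, *Igf1r* (0.074), *Igfbp3* (0.080) and *Igfbp6* (0.16) at day 14, and *Igfbp3* (-0.23) and *Igfbp7* (-0.25) at day 14 against day 7. It shifts all genes by the amounts given in the text. Without the 20 most abundant genes it gave -0.051 for *Igfbp3* and -0.054 for *Igfbp7* at day 14 against day 7. There, a minimum of 10 counts gave -0.0052 and -0.0039, and *Igfbp3* without the sex covariate was -0.0095. Without a fold threshold 19 and 2 pathway genes passed at day 7 and day 14. DESeq2 called 1 member between the sexes. Without mice 19 and 21, 0 pathway genes were called at day 14, *Igf1* was -0.0073 there, and *Igfbp7* was -0.028 at day 14 against day 7. Without mice 5, 10, 15 and 21, the values were 2 pathway genes, -0.0036 (*Igf1*) and 0.031 (*Igfbp6*) at day 14, and -0.054 (*Igfbp3*) at day 14 against day 7. The level of *Igf1* at baseline was 10.2 CPM per kb with the longest transcript and 6.27 with total counts. The 4 related pairs became 9 without mice 5, 10, 15 and 21, 2 without sex means, 3 without baseline (among them *Igf1r* with *Igfbp3*, r = 0.76, but not *Igfbp5* with *Igfbp6*), 1 without day 7 and 2 without day 14. Apart from the scalings and the sets of mice, the cause of these differences was not tested. *Igfbp2*, with 50 counts in all, was too sparse for a test.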
